A study of Mus musculus with 6 samples.

Results

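Mitochondrial ribosomal proteins are the nuclear-encoded proteins of the ribosome that works inside mitochondria. The 78 genes described here are those whose symbol is Mrpl or Mrps followed by a number, of 18071 mouse genes with values; all 78 passed the filter that kept 10899 genes for testing (at least 1 FPKM in 3 or more libraries, where FPKM are fragments scaled to transcript length and to the mapped fragments of the library). RNA came from immature dendritic cells, the antigen-sampling state of these immune cells, that had been under fluid shear stress (FSS) in 3 libraries or in static culture in 3 libraries. The FSS cells sat in a dish under a cone-plate device, which drags medium over them, at 10 dyn/cm2 for 3 h. Cells of both groups had been grown from femur and tibia marrow of male C57BL/6 mice, 7 weeks old, over 7 days with 20 ng/ml GM-CSF and 10 ng/ml IL-4, and then selected for CD11c. Marrow grown with GM-CSF gives macrophage-like cells along with dendritic cells, and the CD11c selection does not separate them. Nothing in the labels says whether replicates were separate cultures or animals, so the spread between these libraries may be technical. The p-values rest on that spread, in part as pooled over all genes in the fit.

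The mitochondrial ribosome translates the few messages of mitochondrial DNA, all of which encode subunits of the respiratory chain and ATP synthase. Its RNAs are made in the mitochondrion, whereas its proteins are made in the cytosol from nuclear genes and imported. It has a small subunit that reads the message and a large subunit that joins amino acids and holds the growing chain; some of its proteins have bacterial counterparts and others are found only in mitochondria. Dendritic cells are known to change their use of mitochondrial respiration when they are activated.

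The 6 libraries summed to 413898 to 470596 FPKM, and their sequencing depth is unknown. Dendritic cell genes were present (Itgax averaged 448 FPKM under FSS and 537 FPKM in static culture, and H2-Ab1 averaged 1096 FPKM under FSS and 1035 FPKM in static culture). Flt3 (0.41 FPKM under FSS and 0.51 FPKM in static culture) and Cd209a (0.29 FPKM under FSS and 0.20 FPKM in static culture) were near 0. Of the markers of other cells, the 5 macrophage genes summed to 492 to 607 FPKM under FSS and 417 to 507 FPKM in static culture, and the 8 neutrophil genes summed to 225 to 362 FPKM under FSS and 266 to 452 FPKM in static culture. Single markers moved in different directions with the replicate number as a block (described below). Mertk averaged 43.02 FPKM under FSS and 17.98 FPKM in static culture (limma adjusted p with the block 0.00166), and Adgre1, also of macrophages, was called higher too. Fcgr1 averaged 3.56 FPKM under FSS and 6.11 FPKM in static culture (limma adjusted p with the block 0.00338). Of the neutrophil genes, S100a8 averaged 134 FPKM under FSS and 212 FPKM in static culture (limma adjusted p with the block 0.00148), while S100a9 averaged 157 FPKM under FSS and 149 FPKM in static culture and was not called. The dendritic cell genes Zbtb46 (60.5 FPKM under FSS and 82.5 FPKM in static culture) and Itgax were called lower with the block (limma adjusted p 0.0121 for Zbtb46 and 0.0199 for Itgax). Of all genes 25.1% were. When the libraries were also rescaled by the median ratio over genes, Itgax was not called (limma adjusted p 0.495). On that scale 0 dendritic cell genes were called higher and 1 lower, 4 macrophage genes higher and 1 lower, and 1 neutrophil gene higher and 1 lower. Of all genes 19.2% were then higher and 16.8% lower. None of the markers passed without the block. The 4 B cell genes summed to at most 5.03 FPKM in any library, the 4 T cell genes to 1.53, the 4 mast cell and basophil genes to 6.03 and the 4 erythroid genes to 0.79. Whether these other cells have a part in the differences below was not tested, and in bulk RNA fewer cells of a type and less RNA per cell cannot be told apart.

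Mitochondrial ribosomal protein genes were expressed at moderate levels in these cells. The mean over the 6 libraries ran from 2.45 FPKM (Mrps25, a small-subunit protein found only in mitochondria) to 63.8 FPKM (Mrpl52, a large-subunit protein found only in mitochondria), a 26.0-fold range in level per length. The median member stood at 14.1 FPKM, against 10.5 FPKM for the median of all genes tested, and 53 of the 78 members lay above that gene. In all, 56 members averaged at least 10 FPKM and 7 averaged below 5 FPKM. The next highest after Mrpl52 were Mrps21 (59.6 FPKM), Mrpl30 (46.3 FPKM), Mrpl20 (45.3 FPKM) and Mrpl33 (34.9 FPKM), all 4 with bacterial counterparts. The next lowest after Mrps25 were the large-subunit genes Mrpl19 (3.15 FPKM) and Mrpl17 (3.61 FPKM). Transcripts of proteins built into the same particle thus differed widely in level. By origin, the median level was 16.3 FPKM over the 30 large-subunit genes with bacterial counterparts and 12.4 FPKM over the 21 large-subunit genes without one. It was 14.2 FPKM over the 16 small-subunit genes with bacterial counterparts and 10.4 FPKM over the 10 without one. The remaining gene, Mrps36, carries the family's name but its product is assigned to another complex, α-ketoglutarate dehydrogenase.

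**Figure D1:**
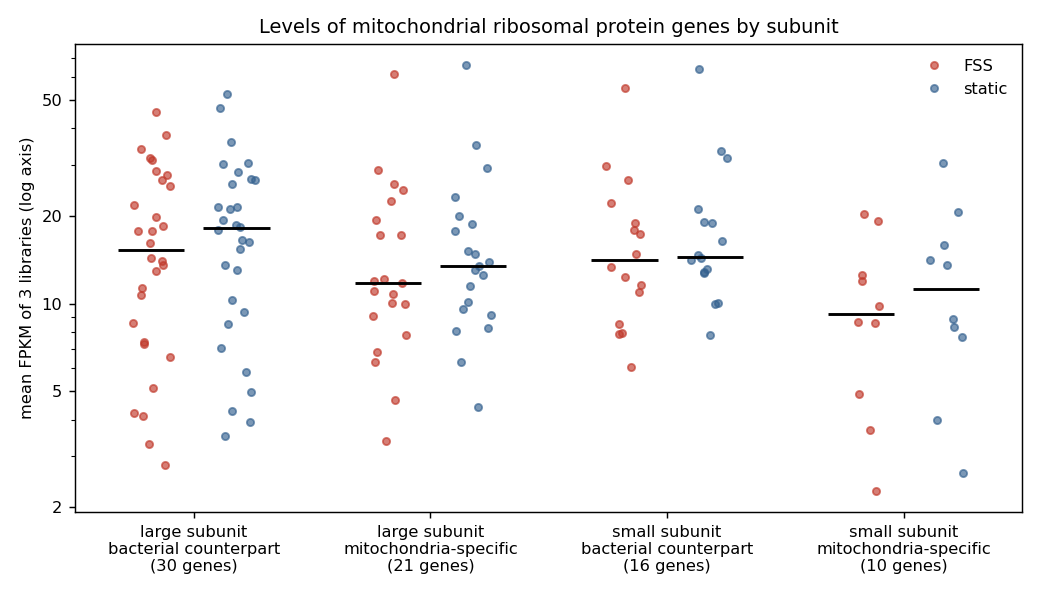
Mean FPKM over the 3 FSS libraries (red) and the 3 static libraries (blue) on a log axis, by subunit and by whether the protein has a bacterial counterpart; each point is 1 gene, the black bars are medians and Mrps36 is not drawn. The 4 classes overlap over most of the range, and Mrpl52 and Mrps25 stand at the top and the bottom in both groups.

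Against static culture, FSS left none of the 78 genes past an adjusted p of 0.05 in limma on log2(FPKM + 1), adjusted by Benjamini-Hochberg across every gene in the fit. Over all genes 1.72% passed, 0.853% higher and 0.862% lower. At an unadjusted p under 0.05 there were 8 members (10.3%), against 18.1% of all genes. Of these, 2 were higher under FSS (against 4.27% of all genes) and 6 lower (against 13.8%). The smallest adjusted p among the members was 0.155, for Mrpl36. The ratio of mean FPKM under FSS to that in static culture lay between 0.8 and 1.25 in 54 of the 78 and reached 0.605 (Mrps10) and 1.56 (Mrps6) at the extremes.

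Most of the small differences pointed down. The difference in log2(FPKM + 1), FSS minus static, was below 0 in 65 members (83.3%, against 65.8% of all genes) and had a median of -0.16, against -0.12 over all genes. Pair by pair, FSS library 1 against static library 1 and so on, the members' medians were -0.18, -0.18 and -0.14 and those of all genes -0.08, -0.07 and -0.22. In all 3 pairs the FSS library was lower in 49 members (62.8%, against 47.3% of all genes) and higher in 7 (8.97%, against 17.1%). The groups did not overlap, with all FSS libraries below all static libraries, in 14 members (17.9%, against 20.4% of all genes), and with all FSS libraries above in 3 (3.85%, against 5.10%), which were Mrps6, Mrpl45 and Mrps9. The downward tilt depended on the scale. When the libraries were rescaled by the median ratio over genes, the median of all genes moved to 0.02 and that of the members to -0.02. On that scale 42 members (53.8%) were below 0 and 36 above, against 47.2% of all genes below. None passed in limma (of all genes 1.45% passed as higher and 0.651% as lower). At an unadjusted p under 0.05 there were 3 members higher (Mrps6, Mrpl45 and Mrps9, against 8.44% of all genes) and 0 lower (against 8.47%), whereas without the scaling 2 were higher and 6 lower. Set against the median gene of its own pair, 21 members were lower in all 3 pairs (26.9%, against 32.8% of all genes) and 12 were higher (15.4%, against 32.5%).

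**Figure D2:**
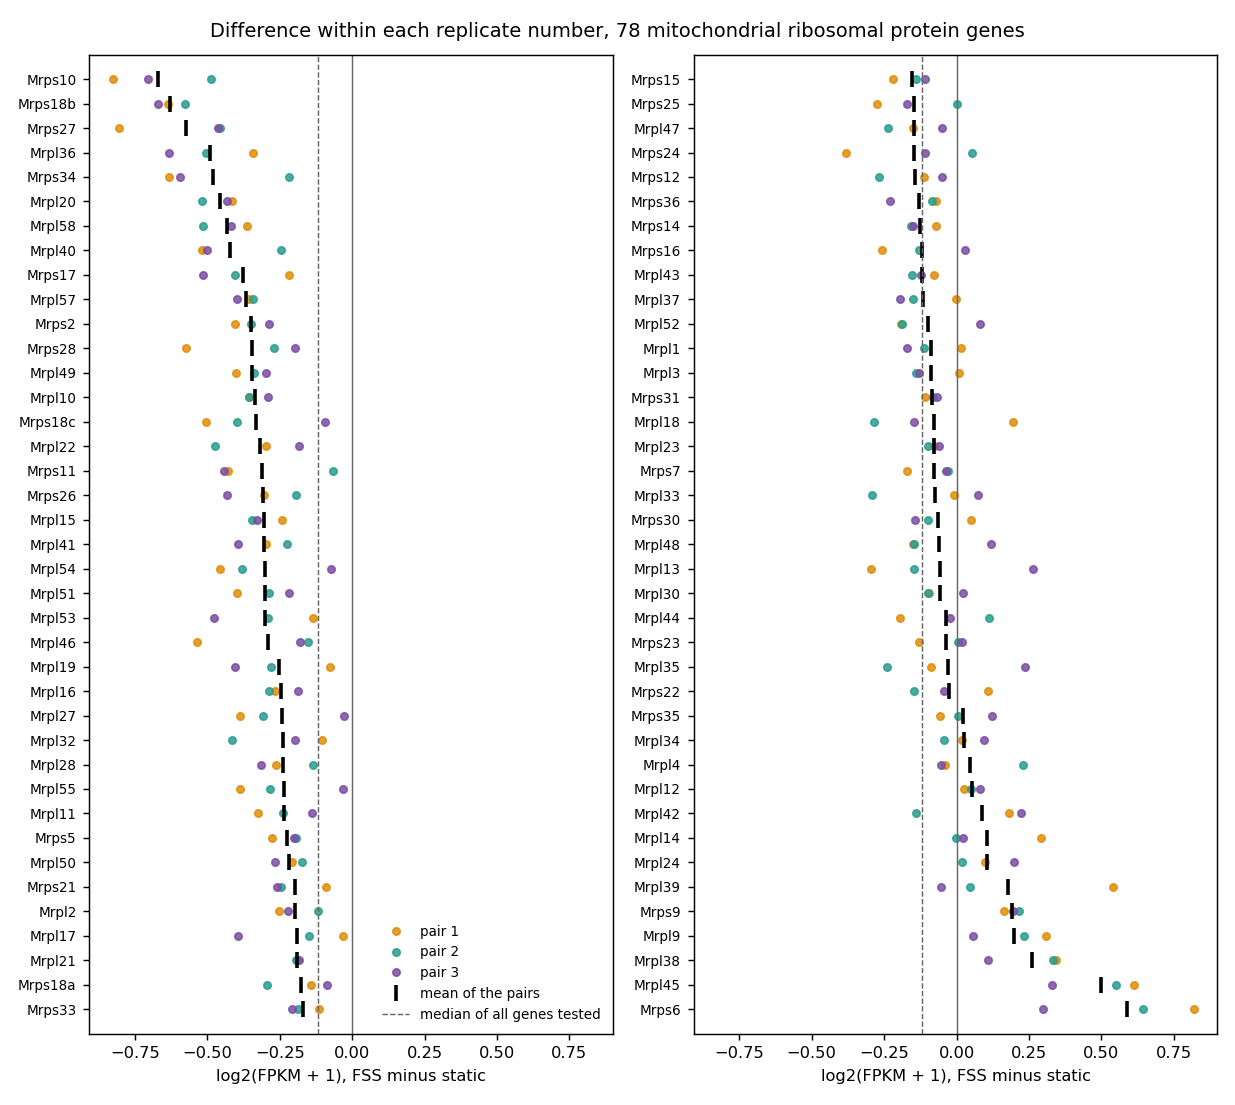
Difference in log2(FPKM + 1), FSS minus static, of each of the 78 genes, from the lowest to the highest mean; the 3 points of a gene are the replicate numbers, the black tick is their mean, and the dashed line is the median of all genes tested (-0.12). Most genes lie a little below 0 around a median of -0.16, with Mrps10 lowest (-0.67) and Mrps6 highest (0.59).

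The members' differences were spread over a narrow range around their median. The SD of the pair difference over the 78 genes was 0.29, 0.22 and 0.23 in pairs 1, 2 and 3, whereas over all genes tested it was 0.50, 0.38 and 0.40. That contrast was not tested.

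Replicate number was then entered as a block, because libraries that share a number deviated together. With the block, limma called 19 members lower under FSS (24.4%, against 25.1% of all genes) and 2 higher (2.56%, against 7.73%). The share called lower was thus close to that of genes in general. By subunit, 11 of the 51 large-subunit genes and 8 of the 26 small-subunit genes were lower, and 1 of each was higher. With block and median-ratio scaling together, 8 were lower (10.3%, against 16.8% of all genes) and 6 higher (7.69%, against 19.2%). In both blocked fits, 8 were lower (against 16.8% of all genes) and 2 were higher (against 7.70%), and these 10 are described next by role. None of the 10 passed without the block. With the block and without both libraries of number 1, 1 member was higher and 7 were lower (4.24% and 15.5% of all genes). Without number 2 it was 2 and 7 (5.00% and 18.7%), and without number 3 it was 4 and 23 (14.3% and 24.5%). Each of these fits rests on 2 pairs and shares a pair with each of the others. A gene that passes them is therefore not tested independently of the full blocked fit.

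Of the small subunit, 4 genes fell in both blocked fits. Mrps10, the counterpart of a bacterial protein in the head of the subunit, had 5.45, 8.75 and 9.68 FPKM under FSS, against 10.43, 12.66 and 16.39 FPKM in static culture. Its difference was -0.67 ± 0.25 (SE) on the log2(FPKM + 1) scale, with an adjusted p of 0.203 in limma without the block and 0.00375 with it. All 3 FSS libraries lay below all 3 static ones, and in each group library 1 was lowest and library 3 highest. Mrps18b had 15.73, 19.04 and 22.95 FPKM under FSS, against 25.01, 28.90 and 37.09 FPKM in static culture, a difference of -0.63 ± 0.21 (limma adjusted p 0.174, and 0.0030 with the block). The groups were again apart, with the same order of libraries inside each. Mrps27, which holds pentatricopeptide repeats of the kind that bind RNA, had 3.46, 5.00 and 6.27 FPKM under FSS, against 6.79, 7.24 and 9.02 FPKM in static culture (-0.58 ± 0.22; limma adjusted p 0.212, and 0.0075 with the block). Mrps34, needed in mammals for a stable small subunit, had 8.12, 9.93 and 11.36 FPKM under FSS, against 13.13, 11.72 and 17.64 FPKM in static culture (-0.48 ± 0.20; limma adjusted p 0.269, and 0.0164 with the block). In both of these genes every FSS library was below every static library, by a narrow margin in Mrps34. With the pair of libraries numbered 1 left out, Mrps34 no longer passed the blocked fit (adjusted p 0.088), while Mrps10, Mrps18b and Mrps27 passed whichever pair was left out.

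Of the large subunit, the other 4 fell in both blocked fits. Mrpl36, a very small protein with a bacterial counterpart, had 13.18, 12.34 and 13.23 FPKM under FSS, against 16.97, 17.91 and 21.03 FPKM in static culture (-0.49 ± 0.16; limma adjusted p 0.155, and 0.00961 with the block). Its FSS values were nearly level and clear of the static ones. Mrpl20, whose bacterial counterpart binds ribosomal RNA early in assembly, had 30.83, 35.20 and 48.15 FPKM under FSS, against 41.48, 50.80 and 65.25 FPKM in static culture (-0.45 ± 0.24; limma adjusted p 0.371, and 0.00755 with the block). The groups overlapped here, since FSS library 3 exceeded static library 1, but each FSS library was below the static one of its number. Mrpl58, a peptidyl-tRNA hydrolase that frees stalled ribosomes and is also a fixed part of the subunit, had 7.59, 8.81 and 13.83 FPKM under FSS, against 10.06, 13.02 and 18.81 FPKM in static culture (-0.43 ± 0.28; limma adjusted p 0.484, and 0.0122 with the block). Mrpl40, found only in mitochondria and named in humans as one of the genes of the 22q11 deletion interval, had 8.13, 11.32 and 12.91 FPKM under FSS, against 12.07, 13.59 and 18.70 FPKM in static culture (-0.42 ± 0.23; limma adjusted p 0.392, and 0.0179 with the block). Both genes showed overlapping groups with the same order inside each pair. Mrpl36 and Mrpl20 passed the blocked fit whichever pair was left out, Mrpl40 missed it without number 1 (adjusted p 0.109) and Mrpl58 missed it without number 2 (adjusted p 0.091).

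The other 11 genes called lower with the block but not with the added scaling were Mrpl10, Mrpl15, Mrpl22, Mrpl41, Mrpl49, Mrpl51, Mrpl57, Mrps2, Mrps17, Mrps26 and Mrps28, with limma adjusted p of 0.0212 to 0.0464 in the blocked fit. Mrpl10, which anchors the stalk that recruits translation factors, had 12.04, 14.11 and 15.93 FPKM under FSS, against 15.70, 18.35 and 19.72 FPKM in static culture. Mrpl12, the stalk protein itself, did not share that difference, with 22.58, 29.26 and 43.16 FPKM under FSS, against 22.18, 28.24 and 40.72 FPKM in static culture. Its libraries differed by number far more than by treatment. The 3 relatives of bacterial protein S18 also varied. Besides Mrps18b (above), Mrps18c, the one in the position of the bacterial protein, had 22.70, 25.10 and 32.02 FPKM under FSS, against 32.59, 33.34 and 34.21 FPKM in static culture (-0.33 ± 0.18; limma adjusted p 0.381, and 0.0508 with the block). Mrps18a, which sits in the large subunit in spite of its name, had 19.73, 24.45 and 33.34 FPKM under FSS, against 21.89, 30.23 and 35.49 FPKM in static culture (-0.18 ± 0.25; limma adjusted p 0.795, and 0.185 with the block). The groups were apart in Mrps18c and overlapped in Mrps18a; whether the 3 differ from one another was not tested.

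Members chosen for their roles gave values in both groups that mostly overlapped. Mrps12, whose bacterial counterpart lies at the decoding site, had 10.81, 11.65 and 17.54 FPKM under FSS, against 11.76, 14.22 and 18.20 FPKM in static culture (-0.14 ± 0.24; limma adjusted p 0.828). Mrps7, of the head of the small subunit, had 13.78, 17.86 and 22.22 FPKM under FSS, against 15.63, 18.24 and 22.83 FPKM in static culture (-0.08 ± 0.22; limma adjusted p 0.91, and above 0 after median-ratio scaling). Mrps16, mutated in a human disorder of mitochondrial translation, had 21.39, 26.93 and 40.55 FPKM under FSS, against 25.76, 29.59 and 39.68 FPKM in static culture (-0.12 ± 0.27; limma adjusted p 0.88, and above 0 after scaling). In all 3 the gap between libraries 1 and 3 of a group was wider than that between the groups. Mrps22, another gene of such disorders, had 8.30, 9.81 and 7.82 FPKM under FSS, against 7.62, 10.97 and 8.10 FPKM in static culture, with library 2 the highest of each group. Mrps2, the counterpart of bacterial S2, had 9.67, 11.56 and 11.58 FPKM under FSS, against 13.13, 15.01 and 14.35 FPKM in static culture (-0.35 ± 0.16; limma adjusted p 0.295, and 0.0253 with the block). Its groups did not overlap, unlike those of the other 4 genes.

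In the large subunit, Mrpl3, of the core around the peptidyl transferase centre, had 29.56, 27.02 and 23.14 FPKM under FSS, against 29.39, 29.91 and 25.44 FPKM in static culture (-0.09 ± 0.17; limma adjusted p 0.852, and above 0 after scaling). Here library 3 was the lowest of each group, the reverse of most members. Mrpl11, at the base of the factor-binding stalk, had 3.26, 3.92 and 5.17 FPKM under FSS, against 4.34, 4.80 and 5.79 FPKM in static culture (-0.23 ± 0.19; limma adjusted p 0.594, and 0.0995 with the block). Mrpl44, which has a fold like that of ribonuclease III, had 8.57, 11.45 and 9.84 FPKM under FSS, against 9.97, 10.53 and 10.02 FPKM in static culture (-0.04 ± 0.16; limma adjusted p 0.941, and above 0 after scaling). The groups overlapped in these 3 genes. Mrps36, of the other complex, had 14.67, 18.26 and 21.62 FPKM under FSS, against 15.48, 19.43 and 25.55 FPKM in static culture (-0.13 ± 0.23; limma adjusted p 0.842, and above 0 after scaling). The most abundant member, Mrpl52, had 59.47, 56.45 and 69.03 FPKM under FSS, against 68.14, 64.53 and 65.15 FPKM in static culture (-0.10 ± 0.16; limma adjusted p 0.816, and above 0 after scaling), with overlapping groups and no common order of the libraries.

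Only Mrpl45 and Mrps6 rose in both blocked fits. Mrpl45, which lies at the tunnel exit and ties the ribosome to the inner membrane, had 18.46, 20.61 and 19.17 FPKM under FSS, against 11.74, 13.76 and 15.05 FPKM in static culture. The difference was 0.50 ± 0.16, with a limma adjusted p of 0.161 without the block and 0.0094 with it. Every FSS library was above every static one; without the pair numbered 1 the blocked adjusted p was 0.060. Mrps6, the counterpart of a bacterial small-subunit protein that pairs with S18, had 24.76, 24.86 and 17.14 FPKM under FSS, against 13.61, 15.55 and 13.75 FPKM in static culture (0.59 ± 0.19; limma adjusted p 0.162, and 0.00961 with the block). Its groups did not overlap, and the gap in pair 3 (0.30) was smaller than in pairs 1 (0.82) and 2 (0.64). Mrps6 passed the blocked fit whichever pair was left out, and without FSS library 3 it was the 1 member that passed without a block (limma adjusted p 0.0452; 2.35% of all genes then passed as higher).

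**Figure D3:**
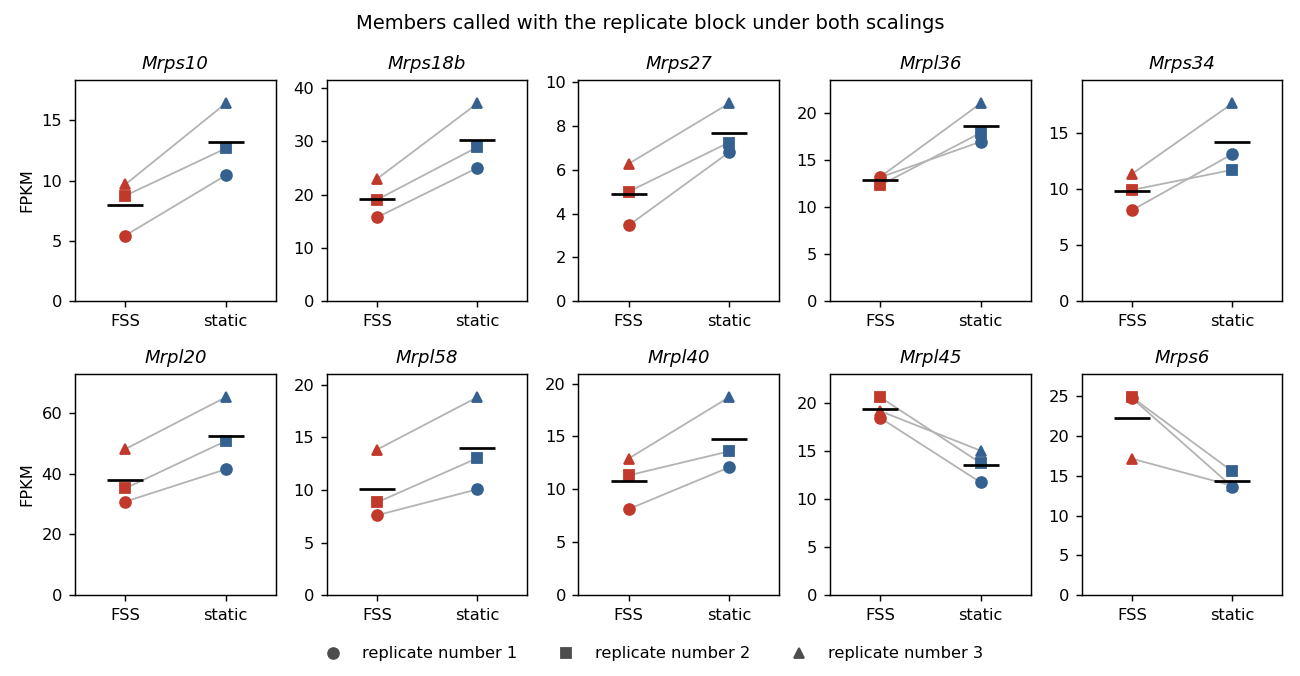
FPKM of the 10 genes called in both blocked fits, 1 panel each from 0, with FSS libraries left of static ones, grey lines joining libraries of the same replicate number and black bars at the group means. Mrpl45 and Mrps6 are higher under FSS in every pair and the other 8 are lower in every pair.

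The Mrps6 gene overlaps a neighbour, and whether its reading depends on that neighbour was not tested. In the RefSeq annotation of GRCm38.p6 Slc5a3, the sodium-coupled myo-inositol transporter used by cells against osmotic stress, starts 14 bases before Mrps6 on the same strand, and the genes overlap. Slc5a3 had 23.51, 19.75 and 7.49 FPKM under FSS, against 2.85, 4.81 and 1.46 FPKM in static culture (2.10 ± 0.45; limma adjusted p 0.0659, and 0.000643 with the block). Both genes were higher in all 3 FSS libraries, and in both FSS library 3 was the lowest of its group. In static culture library 3 was the lowest in Slc5a3 (1.46 FPKM) and library 1 in Mrps6 (13.61 FPKM). How the authors divided reads between overlapping genes is not stated, so the value of Mrps6 is uncertain. In all, 20 members overlap another protein-coding gene. Of the neighbours, 17 were tested, 0 passed limma without the block (1 at an unadjusted p under 0.05) and 3 were higher with it (Slc5a3, Klc4 and Twnk, against 7.73% of all genes). With median-ratio scaling Slc5a3 passed without the block (limma adjusted p 0.0457, against 1.45% of all genes called higher), and 7 neighbours were higher with block and scaling together (against 19.2%).

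Sequence upstream of the starts is shown for 4 of these genes, 2 that fell and 2 that rose, because they differ in the recognition sequences of factors known to act on nuclear genes for mitochondrial proteins. The letters searched on both strands were a consensus of NRF1, CCGGAAG for the ETS family with GABP, AAGATGGC for YY1, and the E-box CACGTG. The E-box is bound by MYC and other factors. The NRF1 letters leave a position open to any base and differ from their reverse complement. Capitals mark the matches, so that the NRF1 letters can be read, as their reverse complement, in Mrpl45. Each run is the 250 bases before the RefSeq start in GRCm38.p6, on the plus strand, at chr13:73330759-73331008 for Mrpl36, chr13:99344536-99344785 for Mrps27, chr11:97315466-97315715 for Mrpl45 and chr16:92058086-92058335 for Mrps6.
Mrpl36: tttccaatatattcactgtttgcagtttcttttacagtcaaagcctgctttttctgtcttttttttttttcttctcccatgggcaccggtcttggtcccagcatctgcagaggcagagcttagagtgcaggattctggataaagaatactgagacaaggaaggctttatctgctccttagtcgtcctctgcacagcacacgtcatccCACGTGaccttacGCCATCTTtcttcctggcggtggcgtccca
Mrps27: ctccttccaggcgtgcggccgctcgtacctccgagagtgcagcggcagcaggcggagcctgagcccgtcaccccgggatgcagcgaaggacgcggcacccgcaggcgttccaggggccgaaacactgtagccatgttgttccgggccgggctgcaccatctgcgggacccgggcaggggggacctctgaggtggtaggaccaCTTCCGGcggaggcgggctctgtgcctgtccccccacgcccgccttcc
Mrpl45: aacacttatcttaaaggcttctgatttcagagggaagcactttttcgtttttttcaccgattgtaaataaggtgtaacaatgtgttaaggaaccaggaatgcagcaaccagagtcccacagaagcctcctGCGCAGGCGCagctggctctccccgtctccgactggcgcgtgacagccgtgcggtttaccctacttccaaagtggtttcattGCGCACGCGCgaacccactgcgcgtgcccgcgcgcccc
Mrps6: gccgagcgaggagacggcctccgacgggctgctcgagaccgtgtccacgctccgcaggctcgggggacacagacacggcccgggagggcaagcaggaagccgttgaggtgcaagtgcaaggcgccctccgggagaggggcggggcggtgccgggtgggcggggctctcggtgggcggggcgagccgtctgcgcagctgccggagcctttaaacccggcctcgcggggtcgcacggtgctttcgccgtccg
Mrpl36 has an E-box and a YY1 match close to each other, Mrps27 has 1 ETS match, Mrpl45 has 2 NRF1 matches, and the run before Mrps6 has none of the 4. Of the other genes that fell in both blocked fits, Mrps10, Mrps18b and Mrpl40 had none of the 4. Mrpl20 had an E-box, Mrpl58 had an ETS match, and Mrps34 had no promoter in the annotation. Whether a match goes with the direction of the difference was not tested.

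RefSeq held such promoters for 69 of the 78 members, and a gene with several starts was counted once if any of its promoters had a match. NRF1 matches were found in 10 member genes (14.5%), against 9.80% of 8802 genes tested and 4.23% of all 27025 genes with a promoter. ETS matches were found in 18 (26.1%), against 16.7% of genes tested and 7.83% of all, and YY1 matches in 4 (5.80%), against 2.41% and 1.83%. The E-box was found in 5 (7.25%), against 10.1% of genes tested and 6.86% of all. At least 1 of the 4 was found in 33 member genes (47.8%), against 33.4% of genes tested and 18.4% of all. A match is a description of the letters and not a bound site, and no match says nothing of the factor.

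The members varied with replicate number, in the same way in both groups. The median member lay 0.20 below, 0.01 above and 0.22 above its group mean of log2(FPKM + 1) in FSS libraries 1, 2 and 3, and 0.18 below, level with and 0.19 above it in static libraries 1, 2 and 3. The mean of the libraries numbered 3 exceeded that of numbers 1 and 2 in 63 members (80.8%, against 40.5% of all genes), with a median shift of 0.32 in the members and -0.12 in all genes. The widest shifts were in Mrpl2 (0.84), Mrpl28 (0.81) and Mrps28 (0.80), and Mrpl1 went the other way (-0.37). FSS library 3 was the highest of its group in 56 members (71.8%, against 28.5% of all genes) and static library 3 in 53 (67.9%, against 38.6%). FSS library 1 was the lowest in 61 (78.2%, against 35.4%) and static library 1 in 63 (80.8%, against 41.7%). The members summed to 1091, 1239 and 1452 FPKM in FSS libraries 1, 2 and 3, against 1205, 1397 and 1586 FPKM in static libraries 1, 2 and 3. In each pair the FSS sum was the lower one, yet FSS library 3 exceeded static library 2. As shares of all FPKM these sums were 0.264%, 0.294% and 0.331% under FSS, against 0.279%, 0.323% and 0.337% in static culture. What the replicate number stands for is not in the labels, and its cause was not tested.

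**Figure D4:**
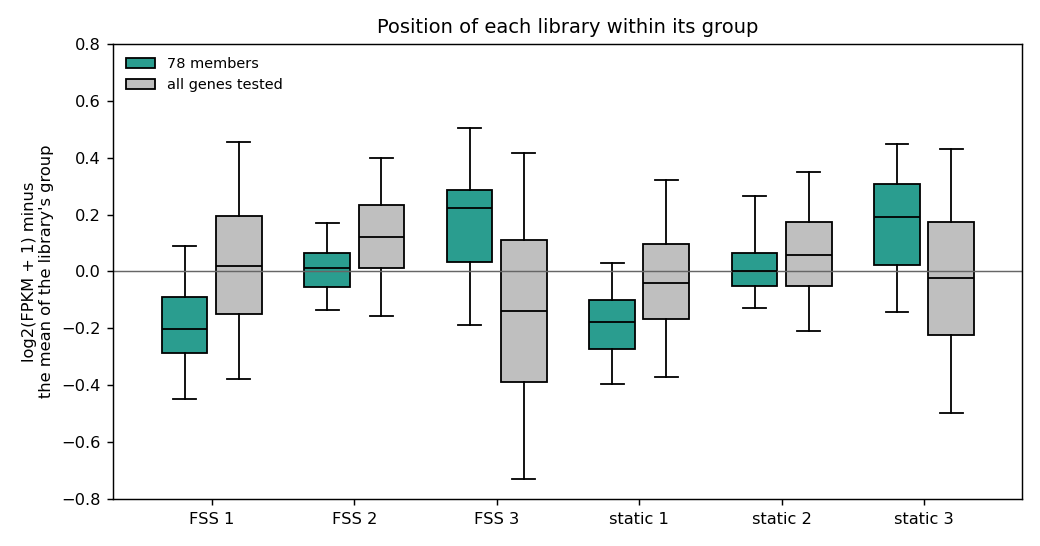
Deviation from the group mean of log2(FPKM + 1) in each of the 3 FSS and 3 static libraries, for the 78 members (green) and all genes tested (grey); boxes are the quartiles with the median as a line, and whiskers reach the 5th and 95th percentiles over genes. The members' median is lowest in number 1 and highest in number 3 in both groups (-0.20 and 0.22 under FSS, -0.18 and 0.19 in static culture), and that of all genes is highest in number 2.

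The neighbouring gene groups, given side by side and without a test of any difference from the members, varied in direction. Over 77 cytosolic ribosomal protein genes the median difference was 0.11, and 0.27 after median-ratio scaling. Over 77 nuclear genes of the respiratory chain it was -0.09, and 0.06 after scaling. Both groups were higher in the libraries numbered 3 too, by medians of 0.40 in the cytosolic genes and 0.52 in the respiratory genes. In limma without the block 0 of either group passed, and 1 gene in each had an unadjusted p under 0.05; with the block 7 cytosolic genes rose and 1 fell, and 1 respiratory gene rose and 5 fell (of all genes 7.73% rose and 25.1% fell). With block and median-ratio scaling 19 cytosolic genes rose and 1 fell, and 4 respiratory genes rose and 0 fell (of all genes 19.2% rose and 16.8% fell), so the balance of the respiratory genes depended on the scale.

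Among other genes of mitochondrial translation, none passed in limma without the block. At an unadjusted p under 0.05 there were 1 of the 5 ribosomal proteins with other symbols, 6 of the 25 assembly genes and 1 of the 20 translation factors. Of all genes, 18.1% had such a p. The 5 mitochondrial ribosomal proteins with other symbols had 1 fall with the block (against 25.1% of all genes), in Ptcd3, a pentatricopeptide repeat protein at the site where the message enters. Ptcd3 had 5.31, 6.41 and 4.37 FPKM under FSS, against 9.64, 10.98 and 7.54 FPKM in static culture (-0.71 ± 0.20; limma adjusted p 0.116, and 0.00228 with the block), with the groups apart. Chchd1, of the same list, had a limma adjusted p of 0.497. Of 25 genes for assembly of the ribosome and modification of its RNA, 1 rose and 5 fell with the block, and likewise with the added scaling. Of all genes 7.73% rose and 25.1% fell with the block, and 19.2% rose and 16.8% fell with the added scaling. Mettl17, which takes part in building the small subunit, had 10.97, 12.32 and 11.79 FPKM under FSS, against 7.08, 8.28 and 7.89 FPKM in static culture (0.54 ± 0.15; limma adjusted p 0.114, and 0.0051 with the block). Eral1, a GTPase that chaperones the small-subunit RNA, had 3.56, 4.37 and 4.52 FPKM under FSS, against 5.49, 6.03 and 7.16 FPKM in static culture (-0.49 ± 0.16; limma adjusted p 0.174, and 0.00862 with the block). The groups were apart in both genes, above static in Mettl17 and below it in Eral1.

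Of 20 translation factors and partners, 0 rose and 1 fell with the block (of all genes 7.73% and 25.1%), and 3 rose and 1 fell with the added scaling (of all genes 19.2% and 16.8%). Mtrf1l, Oxa1l and Rmnd1 were the 3 that rose, with limma adjusted p of 0.0200, 0.0154 and 0.00625 in the blocked and scaled fit. The 1 that fell in both was Slirp, which protects mitochondrial messages together with Lrpprc. It had 42.12, 44.96 and 33.46 FPKM under FSS, against 56.76, 56.92 and 51.50 FPKM in static culture (-0.45 ± 0.17; limma adjusted p 0.218, and 0.0103 with the block). Pdf, which trims the formyl group of new chains, had an adjusted p of 0.112 in limma with the block. Of 11 genes for transcription and replication of mitochondrial DNA, 2 rose and 3 fell with the block (of all genes 7.73% and 25.1%). Without the block 0 of them passed in limma and 2 had an unadjusted p under 0.05 (of all genes 18.1%). Polg, the polymerase, and Ssbp1, which binds single-stranded DNA, had limma adjusted p of 0.156 and 0.128 without the block and differences of -0.50 ± 0.16 and -0.60 ± 0.18. Both were among the 3 that fell with the block. The 2 that rose were Twnk (0.45 ± 0.20, limma adjusted p 0.304 without the block and 0.0270 with it) and Mterf2. Mterf2 differed by 0.43 ± 0.23 (limma adjusted p 0.373 without the block and 0.0225 with it). Of 10 regulators of nuclear genes for mitochondria, 1 passed without the block and was lower (against 0.862% of all genes), and 3 were lower with it (against 25.1% of all genes). Besides Myc these were the coactivators Pprc1 (-0.86 ± 0.18; limma adjusted p 0.0667 without the block and 0.003 with it) and Ppargc1b (-0.56 ± 0.38; limma adjusted p 0.502 without the block and 0.00491 with it). With the added scaling 2 others, Gabpb1 and Ppargc1a, were higher and the same 3 were lower (of all genes 19.2% and 16.8%). Myc had 9.48, 16.07 and 11.49 FPKM under FSS, against 36.86, 43.38 and 37.06 FPKM in static culture (-1.61 ± 0.21; limma adjusted p 0.0203). Its groups were far apart, whereas no gene among the 78 members reached that threshold without the block.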

How the data were processed

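RNA of 6 libraries was read on DNA nanoballs. The values are those the authors deposited, the same in the series table and in all 6 single-sample tables: the authors' FPKM per gene, a unit inferred from the deposited values since the headers name none. HISAT and Bowtie2 are named in the submitters' processing notes. Their roles, the quantifier, the build, the annotation and strandedness were not given in the sources used here. FPKM depend on each library's total and on transcript length. The table held 22899 genes, of which 4828 were blank in all libraries.

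The 10899 genes that reached 1 FPKM in 3 or more libraries were fitted with limma 3.58.1 in R 4.3.3 on log2(FPKM + 1), FSS minus static, variances following the mean, two-sided; p was adjusted by Benjamini-Hochberg across the 10899 genes, and genes under 0.05 were called. Differences are on the log2(FPKM + 1) scale, which understates low genes. Each gene's variance was moderated, that is drawn toward a trend over all genes. With the block little information on spread remains per gene, so blocked p-values rest largely on that shared variance. Mrpl21, for example, differed by -0.19, -0.19 and -0.18 in its 3 pairs, with an SE of 0.0905 in the blocked fit. The fit was run on simulated data in which both groups shared the effect of each replicate number. That simulation therefore cannot show whether the numbers are pairs.

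The replicate numbers come from the sample titles. After subtracting group means, FSS and static libraries of number 1, 2 and 3 correlated over genes at 0.79, 0.66 and 0.87. The numbers were therefore read as pairs, and the blocked fit is given where it changes a call. Other alternatives were median-ratio scaling, equal totals, a pseudocount of 0.1, no filter, calls at 0.01 and each library left out; fits without both libraries of 1 number were added after seeing the data.

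Members, gene lists and alternatives were chosen with earlier results of these data known. Genes named are, among the members, those called, the 8 largest differences each way, the 5 highest and 3 lowest levels and a set chosen by role, and from each list those called or the 2 with the smallest adjusted p; those called with the block and others outside this rule were chosen after their values were seen.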

Additional observations from a re-analysis of the deposited data

How the results depend on the processing

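Without the block no setting called a member lower, and none called one higher except when FSS library 3 was left out (0 to 1 over the 6 libraries left out in turn) or both libraries numbered 3 were (1), the gene being Mrps6. Median-ratio scaling, equal totals, leaving off the filter, adding 0.1 FPKM in place of 1 and calling at 0.01 each gave 0 calls. The replicate block called 2 higher and 19 lower, and with median-ratio scaling 6 higher and 8 lower. With the block and without both libraries numbered 1, 2 or 3, it called 1, 2 and 4 higher and 7, 7 and 23 lower. The causes were not tested, but each such fit rests on 2 pairs.

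The median difference of -0.163 was -0.019 after median-ratio scaling, with or without the block, -0.105 with equal totals, -0.187 without both libraries numbered 3 in either fit, and -0.260 to -0.0757 with single libraries left out.

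Of 37 members followed through 16 alternatives, 13 changed sign in at least 1, and none of them was past the threshold without the block. Median-ratio scaling, with or without the block, gave Mrpl3 0.0676, Mrpl30 0.101, Mrpl33 0.0819, Mrpl44 0.110, Mrpl52 0.0591, Mrps12 0.00929, Mrps16 0.0378, Mrps22 0.118, Mrps36 0.0246 and Mrps7 0.0752. Equal totals gave Mrpl30 0.00712, Mrpl44 0.0234 and Mrps22 0.0317. The block without number 1 gave Mrpl39 -0.0043 and Mrpl44 0.0435, and without number 2 Mrpl33 0.0318 and Mrps22 0.0322. Leaving out single libraries gave Mrpl12 -0.19 to 0.279, Mrpl14 -0.0354 to 0.266, Mrpl3 -0.166 to 0.00425, Mrpl30 -0.166 to 0.0107, Mrpl33 -0.130 to 0.000835, Mrpl44 -0.133 to 0.0566, Mrps12 -0.343 to 0.0111, Mrps16 -0.363 to 0.0825, Mrps22 -0.120 to 0.117, Mrps36 -0.296 to 0.0480 and Mrps7 -0.237 to 0.0885. Depth is unknown, so no counting error can be given, and differences below the spread of 3 libraries are not resolved.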

Other observations

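Transcript length, a median of 848 bases over the 78 genes (418 to 3561), was set against 3 measures as a description across genes, which share the 6 libraries and are not independent. Pearson's r of log10 length was -0.35 with the shift of the libraries numbered 3, 0.11 with the difference between FSS and static, and -0.28 with the mean level. The level itself had an r of 0.19 with the difference between FSS and static.

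The median coefficient of variation of a member over the 3 libraries of a group was 17.6% under FSS and 16.1% in static culture. Mrpl23, Mrpl27, Mrpl48 and Mrps36 have pseudogenes named after them in the RefSeq gene table, and how reads were divided between the copies is not known.

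Of the members that block and scaling together called higher, 4 were not called by the block alone. Mrps9 had 14.09, 15.85 and 14.63 FPKM under FSS, against 12.47, 13.51 and 12.66 FPKM in static culture, with the groups apart. Mrpl38 had 9.49, 11.46 and 12.23 FPKM under FSS, against 7.27, 8.90 and 11.27 FPKM in static culture. Mrpl9 had 16.06, 17.30 and 19.78 FPKM under FSS, against 12.79, 14.57 and 19.00 FPKM in static culture. Mrpl39 had 24.30, 25.09 and 18.42 FPKM under FSS, against 16.39, 24.27 and 19.17 FPKM in static culture, and was the lower of its pair in FSS library 3.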
